A study of Mus musculus with 12 samples.

Results

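A set of 9 complement genes were followed through RNA sequencing of mouse lung endothelial cells (MLECs) from mice with an endothelial knockout of the transcription factors Sp1 and Sp3 (dKO) and from control mice (CTR): C1qa, C1qb, C1qc, C1ra, C1s1, C3, C4b, C3ar1 and Cfb, which are 9 of the 28689 genes in the table. They were picked by name with the difference between the groups already known, so that difference is given below as a description and was not tested for them. The 3 C1q chains and the C3a receptor C3ar1 were higher in each dKO library than in each CTR library, at 13.2 times the CTR mean for C1qa, 10.7 times for C1qb and 13.0 times for both C1qc and C3ar1. C4b was 2.60 times the CTR mean with overlapping groups, C1ra, C1s1 and C3 overlapped between the groups, and Cfb was close to 0.

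Complement is a cascade of plasma proteins that marks microbes, immune complexes and dying cells for removal. In the classical pathway, C1q, a bundle of A, B and C chains, binds its target and activates the proteases C1r and C1s, which cut C4 and then C2 to form an enzyme that cleaves C3. The C3a fragment signals through the receptor C3aR on myeloid cells, and factor B amplifies C3 cleavage in the alternative pathway. Most complement protein of the plasma is made by the liver, whereas C1q is made mainly by macrophages and related myeloid cells.

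MLECs were isolated from lungs of adult male mice with CD31 and then ICAM2 antibody beads, cultured and used at low passage. The dKO group (6 libraries) came from mice carrying the tamoxifen-inducible recombinase VE-CAD-CreERT2, driven by an endothelial promoter, and floxed alleles of both genes (Sp1 fl/fl, Sp3 fl/fl). The CTR group (6 libraries, labelled wild type) came from littermates without the recombinase, with the same floxed alleles and the same tamoxifen treatment. No label says whether each library is a separate mouse, so p-values measure the spread between these libraries. Values are FPKM, the number of sequenced fragments per kilobase of gene length, scaled to the size of the library, and libraries held between 15523054 and 17938286 fragments. Sp1 was between 19.4 and 23.7 FPKM in CTR and between 8.42 and 12.1 in dKO, while Sp3 overlapped, at 27.7 ± 2.31 (SD, n = 6) and 25 ± 1.64 FPKM. The libraries labelled dKO thus still held Sp1 transcripts, and Sp3 did not separate the groups. A value for the whole gene does not show whether its floxed part was lost. By immunofluorescence, the paper reported less Sp1 and Sp3 protein in the aortic endothelium of dKO mice. It also lists a western blot of both proteins in cultured endothelial cells of CTR and dKO mice. Its text does not state their levels there. The endothelial list of 10 markers was present in both groups, with a summed level between 150 and 233 FPKM in CTR and between 280 and 376 in dKO, and 6 retinal markers were under 1 FPKM in every library.

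The sequences before the start of the 4 genes whose groups did not overlap are shown because C1qa, C1qb and C1qc are neighbours that moved together. The chains lie in a row on chr4:136606009-136626161 (GRCm39), all on the minus strand, within 20153 bases. Each sequence is the 250 bases before the annotated start, from the GRCm39 genome, written 5′ to 3′ on the gene's strand. Capitals mark a match, on either strand, to any of 4 motifs searched: the GC box GGGCGG bound by the Sp family, the PU.1 element GAGGAAGT, the gamma-activated site TTCNNNGAA and the interferon-stimulated element GAAANNGAA. No matches overlapped in these windows.
C1qa: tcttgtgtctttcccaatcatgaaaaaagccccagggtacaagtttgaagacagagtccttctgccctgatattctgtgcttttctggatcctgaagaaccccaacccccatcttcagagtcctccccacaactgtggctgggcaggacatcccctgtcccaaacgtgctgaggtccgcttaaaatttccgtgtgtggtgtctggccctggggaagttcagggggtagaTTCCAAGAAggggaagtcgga
C1qb: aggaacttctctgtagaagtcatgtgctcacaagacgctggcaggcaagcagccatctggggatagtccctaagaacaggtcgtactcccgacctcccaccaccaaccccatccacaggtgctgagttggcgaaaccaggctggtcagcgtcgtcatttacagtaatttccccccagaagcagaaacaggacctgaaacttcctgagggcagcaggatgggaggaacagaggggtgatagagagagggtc
C1qc: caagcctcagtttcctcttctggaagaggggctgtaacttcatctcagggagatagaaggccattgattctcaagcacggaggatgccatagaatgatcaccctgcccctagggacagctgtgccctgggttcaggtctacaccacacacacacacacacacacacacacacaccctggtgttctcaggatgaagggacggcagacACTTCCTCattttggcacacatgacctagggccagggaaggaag
C3ar1: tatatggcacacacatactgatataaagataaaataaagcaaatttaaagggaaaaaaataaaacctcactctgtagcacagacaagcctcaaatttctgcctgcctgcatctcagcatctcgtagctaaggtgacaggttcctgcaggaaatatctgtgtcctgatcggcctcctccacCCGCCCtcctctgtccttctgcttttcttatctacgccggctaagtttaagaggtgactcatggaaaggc
The windows are chr4:136626162-136626411 for C1qa, chr4:136613512-136613761 for C1qb, chr4:136620377-136620626 for C1qc and chr6:122833123-122833372 for C3ar1, each on the minus strand. C1qa held a gamma-activated site whose far end lay 21 bases before the start, C1qc held a PU.1 element at 44 bases, C3ar1 held a GC box at 70 bases and C1qb held none of these motifs. Among the same windows of 12375 tested genes, 47.8% held the GC box, 2.03% the PU.1 element, 6.58% the gamma-activated site and 7.19% the interferon-stimulated element. Of the other 5 genes, C4b held an interferon-stimulated element at 37 bases and the rest held no match. A match describes these letters only and shows no binding.

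C1qa (ENSMUSG00000036887), the A chain of C1q, ranged in CTR from 19.9 through a median of 28.3 to 49.3 FPKM. In dKO it ranged from 244 through a median of 361 to 652 FPKM. The lowest dKO library was thus well above the highest CTR library, and the log2 fold change was 3.66 (SE 0.23) on the scale of log2(FPKM + 1), with limma fitted across 12467 genes that had at least 1 FPKM in at least 6 libraries. C1qb (ENSMUSG00000036905), the B chain, ranged from 18.1 through 27.6 to 50.2 FPKM in CTR and from 171 through 284 to 552 FPKM in dKO. Its log2 fold change was 3.35 (SE 0.26). C1qc (ENSMUSG00000036896), the C chain, ranged from 9.16 through 15.1 to 29.2 FPKM in CTR and from 128 through 194 to 353 FPKM in dKO, with a log2 fold change of 3.63 (SE 0.26). All 3 chains were highest in CTR replicate 5 and dKO replicate 3 and lowest in CTR replicate 2 and dKO replicate 5. Ordered by log2 fold change among the 12467 genes, C1qa stood at position 4, C1qc at 5 and C1qb at 8. Fewer cells of a type and less RNA per cell cannot be told apart in bulk samples, nor can more cells and more RNA per cell.

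**Figure D1:**
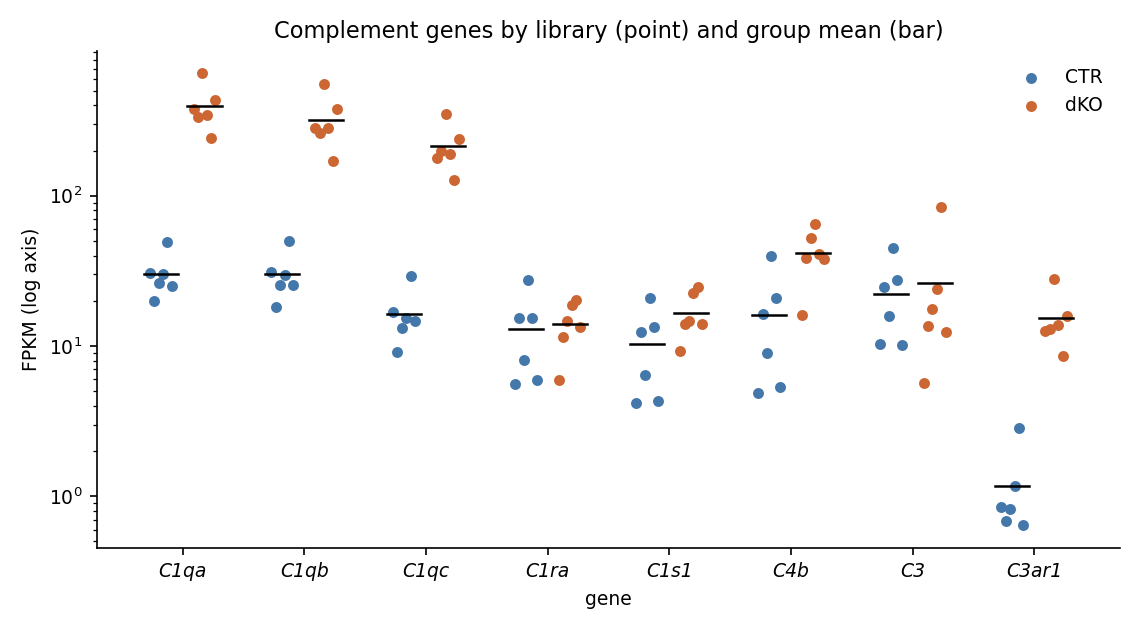
FPKM (log axis) of 8 complement genes in each of the 6 CTR and 6 dKO libraries (points), with the group mean as a bar. All dKO points of C1qa, C1qb, C1qc and C3ar1 lie above all CTR points, whereas C1ra, C1s1, C4b and C3 overlap. Cfb, close to 0, is not drawn.

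C1r and C1s, the proteases of the C1 complex, did not share this pattern. C1ra (ENSMUSG00000055172; chr6:124489364-124500402, plus strand) ranged in CTR from 5.602 through 11.7 to 27.6 FPKM and in dKO from 5.90 through 13.9 to 20.4 FPKM. All dKO libraries lay within the CTR range, and the log2 fold change was 0.23 (SE 0.37). C1s1 (ENSMUSG00000038521; chr6:124507297-124559389, minus strand) ranged from 4.18 through 9.42 to 21.0 FPKM in CTR and from 9.29 through 14.3 to 24.5 FPKM in dKO. Only dKO replicates 4 and 5 exceeded the highest CTR library, and the log2 fold change was 0.78 (SE 0.35). Both were lowest in replicate 1 of each group and highest in CTR replicate 4 and dKO replicate 5, unlike the C1q chains. Their transcripts resemble those of C1rb (97.9% identity over 2432 bases) and C1s2 (96.0% over 2644 bases), and the authors used uniquely aligned reads. C1rb did not exceed 0.0945 FPKM and C1s2 did not exceed 0.192 FPKM in any library.

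C4b (ENSMUSG00000073418; chr17:34947354-34962912, minus strand), which C1s cleaves, ranged in CTR from 4.87 through 12.7 to 39.8 FPKM. In dKO it ranged from 16.04 through 39.9 to 64.5 FPKM. The groups overlapped, since 3 of 6 dKO libraries exceeded CTR replicate 4, the highest of its group, and the log2 fold change was 1.56 (SE 0.46). Its neighbour C4a, whose transcript is 95.6% identical over 2734 bases, did not exceed 0.185 FPKM.

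C3 (ENSMUSG00000024164; chr17:57510964-57535155, minus strand), the central component cut in every pathway, ranged in CTR from 10.2 through 20.4 to 44.9 FPKM. In dKO it ranged from 5.65 through 15.7 to 84.3 FPKM. The dKO mean rested on replicate 5, as the other dKO libraries reached at most 24.0 FPKM, and the log2 fold change was -0.08 (SE 0.53). It came to -0.51 without dKO replicate 5, 0.23 without dKO replicate 1 and 0.15 without CTR replicate 4, and was 0.01 under median-of-ratios scaling, so the sign is not fixed by these data.

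Cfb (ENSMUSG00000090231; chr17:35074852-35081559, minus strand), factor B, had at most 0.103 FPKM in CTR and 0.465 FPKM in dKO, and did not pass the filter. These values rest on 9 fragments over the CTR libraries and 38 over the dKO libraries, of which 23 were in dKO replicate 5. The gene Nelfe overlaps it on the opposite strand at up to 21.4 FPKM, and the strand setting of the counting is not given in the sources used here, so the few Cfb fragments cannot be assigned with certainty. The annotation also holds Gm20547, a protein-coding gene on the same strand whose transcript is identical to that of Cfb over 1894 bases and which is not analysed here, so its share of the fragments is not known.

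C3ar1 (ENSMUSG00000040552; chr6:122823393-122833122, minus strand), the C3a receptor, ranged in CTR from 0.641 through 0.841 to 2.85 FPKM. In dKO it ranged from 8.64 through 13.3 to 27.9 FPKM. The groups did not overlap, the log2 fold change was 2.89 (SE 0.25), and the extremes were again CTR replicate 5 and dKO replicates 3 and 5. The 6 dKO libraries alone were enough to carry C3ar1 past the filter, because 4 of 6 CTR libraries were under 1 FPKM. Its log2 fold change depends on the pseudocount, rising to 3.81 (SE 0.35) with 0.01 in place of 1.

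Of the 9 genes, 8 passed the filter and 4 had every dKO library above every CTR library. That pattern was seen in 11.3% of all 12467 tested genes, and since the genes were picked on this contrast nothing is read from the count. In CTR the order of mean levels per length was C1qa (30.3 ± 10.1 FPKM), C1qb (30.0 ± 10.9), C3 (22.3 ± 13.2), C1qc (16.4 ± 6.80), C4b (16.1 ± 13.3), C1ra (13.0 ± 8.40), C1s1 (10.3 ± 6.57), C3ar1 (1.17 ± 0.843) and Cfb (0.0309 ± 0.0408; SD, n = 6 throughout). Neighbours in this order from C1qa down to C1s1 differed by less than their SD. In dKO the order was C1qa (398 ± 139 FPKM), C1qb (321 ± 130), C1qc (214 ± 76.6), C4b (41.8 ± 16.2), C3 (26.3 ± 29.1), C1s1 (16.5 ± 5.81), C3ar1 (15.3 ± 6.63), C1ra (14.1 ± 5.22) and Cfb (0.128 ± 0.176). Here C1qc and C4b were further apart than their SDs, whereas C1s1, C3ar1 and C1ra were not. Levels per length rest on the lengths the authors used, recovered as 1040 bases for C1qa, 1088 for C1qb and 1931 for C1qc.

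Subunits of the same complex were next compared within each library. The C1qa/C1qb ratio was between 0.982 and 1.10 in CTR and between 1.16 and 1.43 in dKO, without overlap. The C1qa/C1qc ratio overlapped, at 1.69 to 2.17 in CTR and 1.71 to 2.13 in dKO. Accordingly C1qb/C1qc was lower in dKO, at 1.32 to 1.59 against 1.72 to 1.98 in CTR. The B chain was thus lower relative to either partner in each dKO library than in each CTR library. The C1ra/C1s1 ratio was 1.28 ± 0.0861 in CTR and 0.844 ± 0.126 in dKO (SD, n = 6), again without overlap. The C4b/C3 ratio spanned 0.469 to 0.888 in CTR and 0.486 to 3.05 in dKO, where replicate 5 alone overlapped CTR and the others lay between 2.69 and 3.05. These ratios come from the contrast on which the genes were chosen and were not tested.

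**Figure D2:**
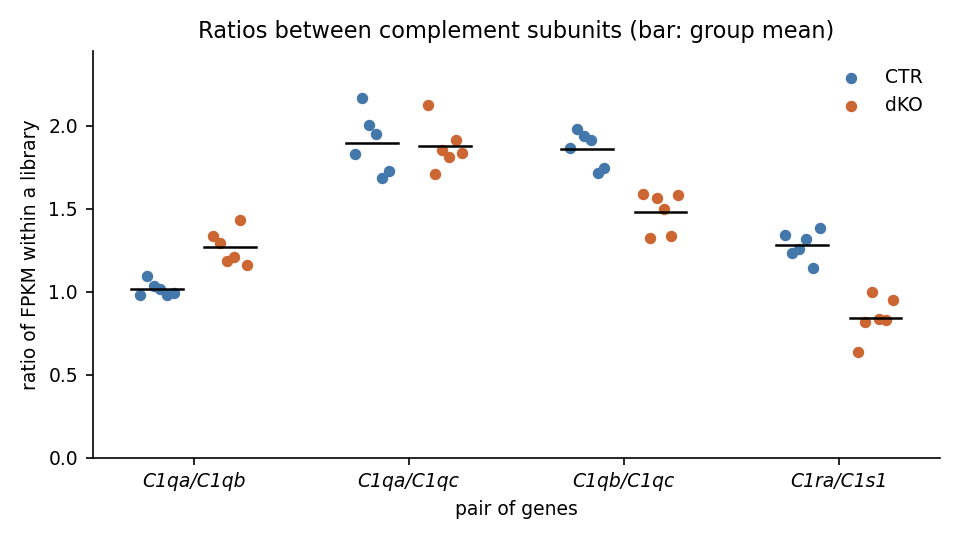
Ratio of FPKM between complement subunits within each of the 6 CTR and 6 dKO libraries (points; bars, group means). C1qa/C1qb is higher, and C1qb/C1qc and C1ra/C1s1 are lower, in each dKO library than in each CTR library, whereas C1qa/C1qc overlaps.

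The spread between libraries of the same group does not depend on the contrast and was tested with exact two-sided permutation tests of log2(FPKM + 1), in a family of 8 relations with Benjamini-Hochberg adjustment. In CTR, Pearson's r was 0.996 for C1qa with C1qb (exact p = 0.00139, adjusted 0.00556), 0.986 for C1qa with C1qc (exact p = 0.00417, adjusted 0.00667) and 0.994 for C1qb with C1qc (exact p = 0.00278, adjusted 0.00556). Spearman's rho was 1, 0.943 and 0.943 for these pairs (exact adjusted p = 0.0111, 0.0267 and 0.0267). In dKO, r was 0.991 for C1qa with C1qb (exact adjusted p = 0.00556), 0.976 for C1qa with C1qc (exact adjusted p = 0.00952) and 0.984 for C1qb with C1qc (exact adjusted p = 0.00926). The matching rho values were 0.943, 0.771 and 0.829, and the last pair of these did not pass (exact adjusted p = 0.117 for C1qa with C1qc and 0.0778 for C1qb with C1qc). Without the 2 libraries farthest from the median of the former gene, r over the remaining 4 was 0.976, 0.776 and 0.892 in CTR and 0.939, 0.698 and 0.845 in dKO. The smallest p that these permutations can give is 0.00139.

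The mean of the C1q chains was set against the mean of the tested macrophage markers in the same family. In dKO, r was 0.947 (exact p = 0.00139, adjusted 0.00556) and rho 1 (exact adjusted p = 0.0111), and r stayed at 0.906 without the 2 libraries farthest from the median of C1q. In CTR, r was 0.859 (exact p = 0.0167, adjusted 0.0167) and rho 0.714 (exact adjusted p = 0.136). The CTR relation rests on its extreme libraries, since r fell to 0.423 without the 2 farthest and to 0.657 (exact adjusted p = 0.258) without CTR replicate 5. It also missed the threshold without CTR replicate 2 (r = 0.802, exact adjusted p = 0.1) and CTR replicate 6 (r = 0.890, exact adjusted p = 0.050). C1qa with C1qc in dKO came to an exact adjusted p of 0.050 without replicate 3, 5 or 6, with r between 0.933 and 0.975.

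A further 70 relations, chosen after values were seen, set each of the 8 genes against 4 marker lists and 3 pairs of genes against each other, and 22 passed by Pearson's r and 6 by Spearman's rho at an adjusted p under 0.05. C3ar1 followed the macrophage list in CTR (r = 0.901, exact adjusted p = 0.0243) and in dKO (r = 0.970, exact adjusted p = 0.0243), but neither passed by rho (0.886 and 0.829, exact adjusted p = 0.130 and 0.170). Without the 2 libraries farthest from the median of C3ar1, r was 0.9002 in CTR and 0.742 in dKO. C1ra, C1s1, C4b and C3 followed the fibroblast list in CTR, with r between 0.994 and 0.997 (exact adjusted p between 0.0162 and 0.0243). In dKO the r with that list was 0.826 for C1ra, 0.832 for C1s1, 0.748 for C4b and 0.658 for C3, and none passed (exact adjusted p between 0.113 and 0.316, with an unadjusted exact p of 0.0472 for C1ra and 0.0403 for C1s1). The endothelial list gave r between 0.955 and 0.970 for the same 4 genes in CTR (exact adjusted p = 0.0243 for each), and the interferon list r between 0.904 and 0.928 (exact adjusted p between 0.0358 and 0.0486), so these genes followed all 3 lists by Pearson's r. By Spearman's rho the fibroblast list passed for C1ra, C1s1 and C4b (rho 1, exact adjusted p = 0.0324) and not for C3 (rho 0.943, exact adjusted p = 0.0833), and the other 2 lists passed for none (exact adjusted p between 0.0833 and 0.170, with unadjusted exact p under 0.05 for all but C3 with the interferon list). Many genes shared this spread: 17.1% of the 12467 tested genes had r of at least 0.8 with the fibroblast list in CTR, against 2.09% with the macrophage list. With the endothelial list in CTR, 17.2% had r of at least 0.8 and 4.88% had r of at least 0.95. At r of at least 0.99, nearer to the values of C1ra, C1s1, C4b and C3, the share with the fibroblast list was 0.602% (75 genes). The C1q chains had r between 0.0530 and 0.169 with the fibroblast list in CTR.

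With the group means removed and all 12 libraries pooled, as a description, the 8 genes that passed the filter fell into 2 sets. C1qa, C1qb, C1qc and C3ar1 had r of at least 0.930 with each other, and C1ra, C1s1, C4b and C3 had r of at least 0.714. Between the sets r lay between -0.28 and 0.40. C1ra and C1s1, whose products form a complex with C1q, had r between -0.08 and 0.00 with the C1q chains.

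**Figure D3:**
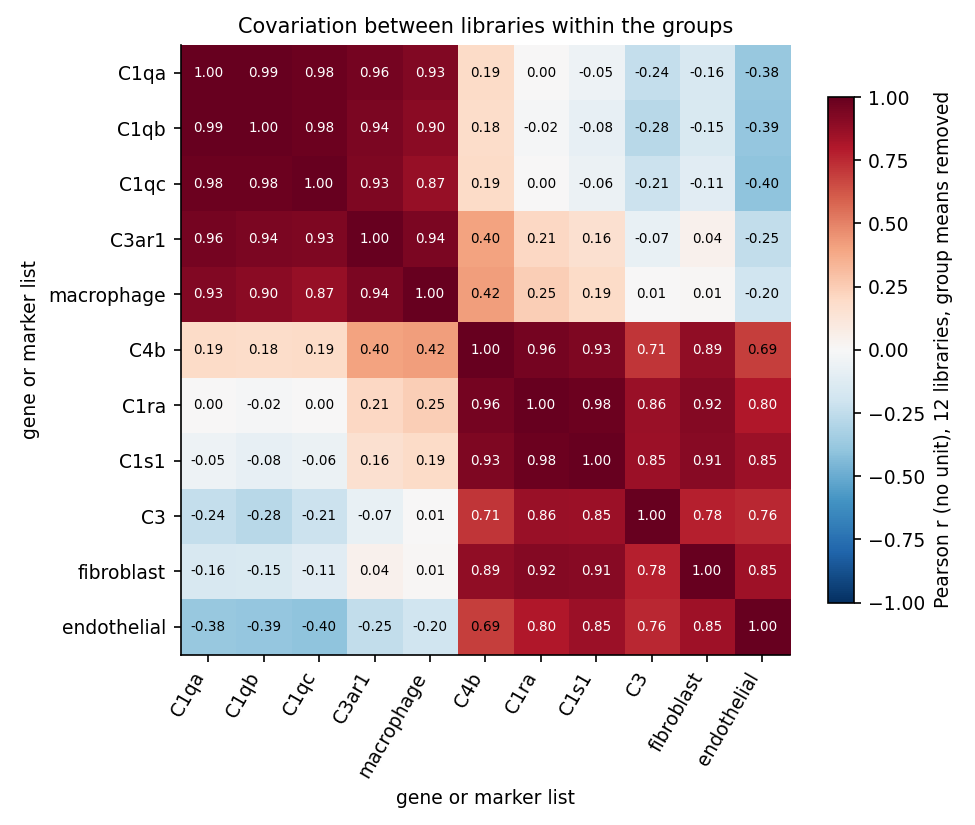
Pearson r of log2(FPKM + 1) over 12 libraries after the group means were removed, for 8 complement genes and the means of 3 marker lists (colour scale from -1 to 1). C1qa, C1qb, C1qc and C3ar1 form a block with the macrophage list, and C4b, C1ra, C1s1 and C3 a block with the fibroblast and endothelial lists.

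Of the 10 tested genes most like the mean of the C1q chains by the same measure, 9 are named here: Trem2 (r = 0.966), Ccr1 (0.942), Pla2g7 (0.936), Dnajc19-ps (0.924), Ctss (0.913), Lpxn (0.912), Jaml (0.909), Arl11 (0.906) and Fcna (0.904). Trem2 is a lipid receptor of macrophages, Ccr1 a chemokine receptor, Ctss a lysosomal protease, and Fcna encodes ficolin A of the lectin pathway. Trem2 and Ctss belong to the macrophage list.

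Macrophage markers were higher along with C1q. Of 17 markers 15 were tested, and all 15 were called higher in dKO by limma, beside 20.4% of all tested genes. Of the 15, only Fcgr1 passed the filter through its dKO libraries alone, with at most 0.835 FPKM in CTR, so its call was partly set by the filter. The median of their log2 fold changes was 1.68 and the range was 0.54 to 2.40. On this scale, which lowers the change of weakly expressed genes, all 15 were below the 3.35 of C1qb, but by the ratio of means Fcgr1 reached 11.1 times CTR, above the 10.7 times of C1qb. The summed level of the list was between 855 and 1467 FPKM in CTR and between 2533 and 5425 FPKM in dKO. No marker was at 0 in all libraries, though Cx3cr1 stayed under 1 FPKM throughout and Aif1 did not exceed 0.224 FPKM in CTR. The summed C1q chains amounted to between 4.78 and 9.59 FPKM per 100 FPKM of the macrophage list in CTR and between 21.4 and 29.7 in dKO. Lyz2 weighed most in that measure, at 746 ± 160 FPKM in CTR and 1868 ± 580 FPKM in dKO (SD, n = 6). Its dKO mean was 2.50 times CTR, whereas the tested markers ranged from 1.47 times for Mertk to 11.1 times for Fcgr1. The part of macrophage RNA in the C1q result was not tested. Alveolar macrophage markers moved in both directions, with Fabp4 higher, Marco and Car4 lower and the other 2 tested not called, and their summed level overlapped (1019 to 1725 FPKM in CTR, 497 to 1786 in dKO). The called share was 60% for the alveolar macrophage list and 57.1% for the fibroblast list, beside 53.1% of all tested genes. The fibroblast list had a summed level of 2180 to 2777 FPKM in CTR and 869 to 1735 FPKM in dKO, with 1 of 7 tested genes higher and 3 lower. Collagen weighed most in this sum, with Col1a1 at 1070 to 1267 FPKM in CTR and 395 to 685 FPKM in dKO. Col1a1 and Col1a2 were lower in each dKO library than in each CTR library and Dcn was higher, whereas the other listed genes overlapped. The part of the fibroblast list in the C1ra, C1s1, C4b and C3 values was not tested. The interferon list was higher in 11 of 11 tested genes, beside 20.4% of all tested genes, at a median log2 fold change of 1.88. Its summed level was 41.1 to 55.2 FPKM in CTR and 126 to 455 FPKM in dKO, and its part was not tested either. Endothelial markers were higher in 9 of 10, and mesothelial markers in 5 of 6 tested genes, beside the same 20.4%. The summed mesothelial level was 28.8 to 38.6 FPKM in CTR and 66.3 to 146 FPKM in dKO. On the scale of log2(FPKM + 1), though not by the ratio of means, Upk1b (log2 fold change 2.48) exceeded every tested macrophage marker. The part of these lists was not tested. The only hepatocyte marker in the table, Alb, did not exceed 0.0499 FPKM.

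**Figure D4:**
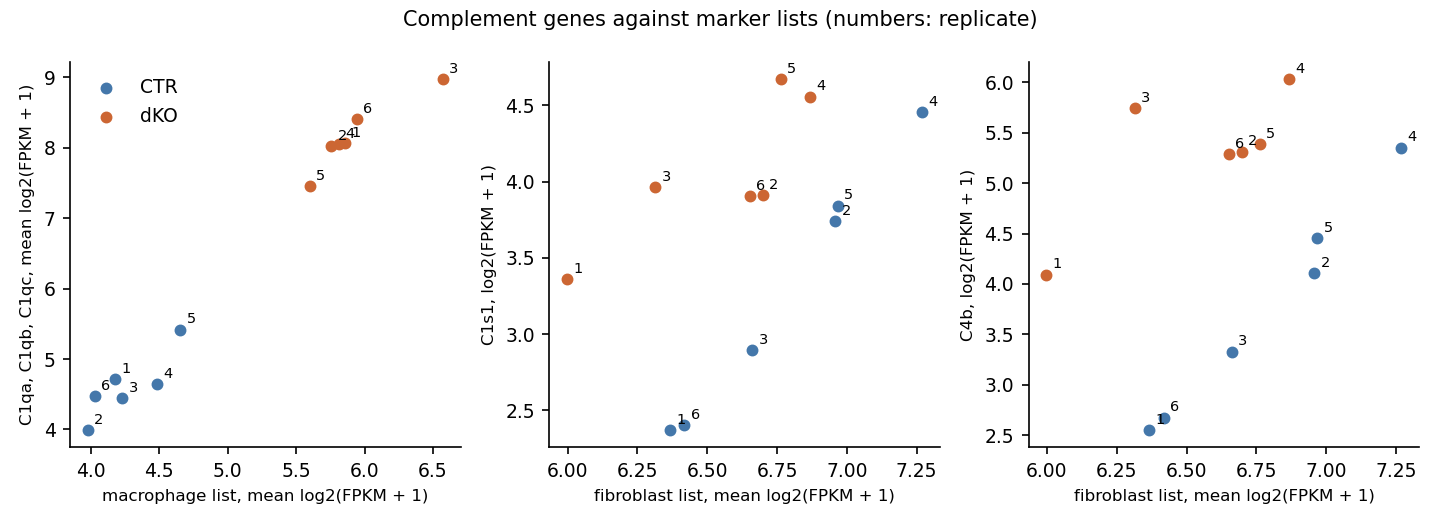
Mean log2(FPKM + 1) of the C1q chains against that of the tested macrophage markers, and C1s1 and C4b against the tested fibroblast markers, for each library (numbers, replicate). In the first panel both groups lie along a rising band with dKO replicate 3 at the top, and in the others dKO points lie above CTR points at the same fibroblast level.

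Complement genes beyond the 9 were taken from lists of 53 genes by role, of which 48 were in the table and 23 passed the filter. Of these 23, 14 were higher and 3 lower in dKO at an adjusted p under 0.05 (limma, Benjamini-Hochberg over all tested genes). Among all tested genes 53.1% were called, 20.4% higher and 32.6% lower. The called share of the list was 73.9%, and its median log2 fold change was 0.76, against -0.10 over all tested genes. Every dKO library was above every CTR library for 12 of the 23, beside 11.3% of all tested genes. Vsig4 and Lair1 are counted in the 14, the 12 and the called share. Both passed the filter only through their dKO libraries, which fixed their separation in advance.

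Among initiators, the classical pathway had no further gene to test: C1rb, C1s2, C4a and C2 did not pass the filter, and C2 was between 0.267 and 0.887 FPKM in CTR and between 0.616 and 1.27 FPKM in dKO. In the lectin pathway 2 of 8 genes passed and both were higher. Fcna was 2.11 ± 0.703 FPKM in CTR and 14.4 ± 4.60 FPKM in dKO (SD, n = 6). Its log2 fold change was 2.28 (SE 0.20, adjusted p = 2.81e-06 by limma), and the other was the protease Masp1. Cfp, properdin, which stabilises the C3-cleaving enzyme of the alternative pathway, was 7.05 ± 1.58 FPKM in CTR and 31.0 ± 11.1 FPKM in dKO, with a log2 fold change of 1.94 (SE 0.20, limma adjusted p = 1.01e-05). Of the terminal genes that build the membrane attack complex, C8g was lower and C7 was not called (log2 fold change -0.42, limma adjusted p = 0.425).

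**Figure D5:**
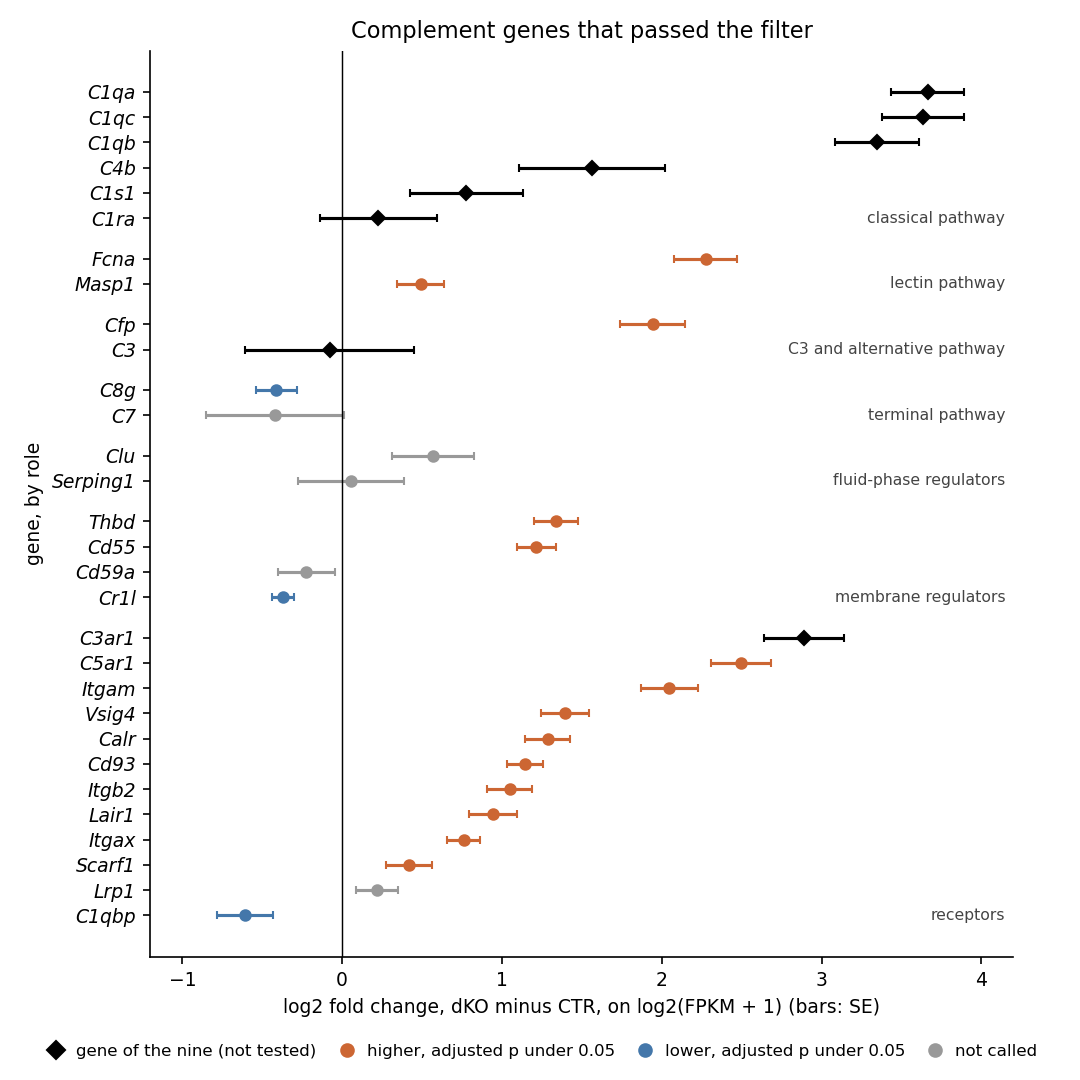
Log2 fold change, dKO minus CTR, on log2(FPKM + 1) with its SE (bars) for complement genes that passed the filter, by role. Diamonds are genes of the 9, which were not tested; circles are other genes, coloured by their limma call. The C1q chains lie furthest to the right, at 3.35 to 3.66, and all tested receptors but Lrp1 and C1qbp are called higher.

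Receptors bind complement fragments or C1q itself on the cell surface. Of 11 tested besides C3ar1, 9 were higher, C1qbp was lower and Lrp1 was not called (log2 fold change 0.22, limma adjusted p = 0.180). C5ar1, the C5a receptor, was 1.41 ± 0.491 FPKM in CTR and 13.0 ± 4.96 FPKM in dKO, with a log2 fold change of 2.50 (SE 0.19, limma adjusted p = 1.12e-06). Itgam, the alpha chain of complement receptor CR3, had a log2 fold change of 2.05 (SE 0.18, limma adjusted p = 2.81e-06), and Vsig4, a macrophage receptor for C3b, 1.39 (SE 0.15, limma adjusted p = 1.21e-05). Calr, calreticulin, which binds the collagen-like part of C1q, rose from 201 ± 39.6 to 490 ± 87.8 FPKM (log2 fold change 1.29, SE 0.14, limma adjusted p = 1.19e-05). Vsig4 and Lair1 passed the filter only through their dKO libraries, and without these 2 genes 7 of 9 receptors and 12 of 21 complement genes outside the 9 were higher. Among all tested genes 20.4% were higher. Itgax, Itgb2, Cd93, Lair1 and Scarf1 were the other receptors that were higher, and the call of Scarf1 (0.42, limma adjusted p = 0.0269) was lost on leaving out any of CTR replicates 1, 3 and 6 and dKO replicates 4, 5 and 6, with adjusted p between 0.0534 and 0.0598.

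Regulators, which limit complement on the host's own surfaces, were called in both directions. On the membrane, Thbd, thrombomodulin, had a log2 fold change of 1.34 (SE 0.14, limma adjusted p = 9.67e-06) and Cd55, which breaks up C3-cleaving enzymes, 1.22 (SE 0.12, limma adjusted p = 7.08e-06), whereas Cr1l was lower and Cd59a was not called (-0.22, limma adjusted p = 0.304). None of 3 tested fluid-phase regulators was called by limma, also not by limma-voom on recovered fragments, and 1 of 3, Clu, had an unadjusted p under 0.05. Serping1, the C1 inhibitor that dissociates C1r and C1s from C1q, was 168 ± 71.9 FPKM in CTR and 177 ± 69.5 FPKM in dKO (log2 fold change 0.05, SE 0.33, limma adjusted p = 0.903, from -0.08 without dKO replicate 4 to 0.32 without dKO replicate 1). Clu had 0.57 (SE 0.26, limma adjusted p = 0.0803), and passed the threshold under median-of-ratios scaling (adjusted p = 0.0439) and without dKO replicate 4 (adjusted p = 0.0422). Lrp1 passed without dKO replicate 1 (limma adjusted p = 0.0478).

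Genes that share the globular C1q domain but are not complement were called in both directions, at a share near that of all genes. Of 10 tested, 4 were higher (Emilin2, Col8a1, C1qtnf2 and Mmrn2), 2 were lower (Mmrn1 and C1qtnf12) and 4 were not called (60% called, beside 53.1% of all tested genes), around a median log2 fold change of 0.09. Emilin2, a matrix protein, had 1.56 (SE 0.21, limma adjusted p = 5.77e-05), Col8a1 1.44 (SE 0.24, limma adjusted p = 0.000266) and C1qtnf2 1.25 (SE 0.18, limma adjusted p = 9.19e-05). Mmrn1, a matrix protein of platelets and endothelium, was 14.6 ± 4.06 FPKM in CTR and had no fragment in any dKO library, so it passed the filter through CTR only.

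Genes beside the C1q cluster were examined to see whether the difference was shared by the region. Ephb2, 42658 bases before it, was lower in dKO (log2 fold change -0.70, SE 0.12, limma adjusted p = 0.00027), Epha8, 30569 bases after it, was under the filter, and Zbtb40, 80882 bases after it, was higher by 0.35 (SE 0.12, limma adjusted p = 0.0301). The neighbours on either side thus did not share the size of the C1q difference. Beside C3ar1, Foxj2 and Necap1 were not called (limma adjusted p = 0.0612 and 0.0963), whereas Slc2a3, 44794 bases before it, and Clec4a1, a myeloid lectin gene 63000 bases after it, were higher by 0.30 (limma adjusted p = 0.0206) and 1.64 (limma adjusted p = 4.81e-05). Clec4a1 averaged 0.569 ± 0.311 FPKM in CTR and 4.05 ± 1.71 FPKM in dKO (SD, n = 6). It thus passed the filter mainly through its dKO libraries, so its call was partly set by the filter.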

How the data were processed

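RNA of 12 MLEC libraries (6 CTR, 6 dKO) was sequenced as paired ends. The authors checked and trimmed the reads with FastQC and Trimmomatic, aligned them to mm39 with STAR, kept uniquely aligned reads and aligned these again. The counting program, annotation and strand setting are not given in the sources used here, and the labels' extraction text names retina and another library kit. The authors deposited FPKM values per gene. Columns were matched to samples through the labels, and the dKO columns carry the name of tamoxifen, given to all mice.

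FPKM values are not counts, so limma 3.58.1 in R 4.3.3 (lmFit, eBayes with trend) was run on log2(FPKM + 1), without covariates, on the 12467 genes that reached 1 FPKM in 6 or more of 12 libraries, with Benjamini-Hochberg adjustment and a threshold of 0.05. Whole library totals and gene lengths were recovered from the FPKM values, and 100% of genes came out as whole fragments (within 0.0001). They served for depth and for limma-voom as an alternative. On a gene of 2 kb, 1 fragment was worth between 0.0279 and 0.0322 FPKM, and fragment numbers cover counting error only. Of 28689 genes, 27706 were matched by identifier to GENCODE vM39, which gave symbols, positions and upstream sequence. Similar transcripts were sought with BLAST 2.17.0 (at least 90% identity over at least 500 bases). The fit was tested on simulated data with planted changes. Python 3.11.15 (SciPy 1.17.1, NumPy 2.4.6, pandas 2.3.3, Matplotlib 3.10.9) served for the rest.

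The 9 genes, the gene lists and the tests were chosen with earlier results of these data known. Values outside the 9 genes are given for the 12 called complement or C1q-domain genes with the largest absolute log2 fold change, and for genes most like C1q. Other genes with values complete a list, flank a locus or were named after their values were seen. Cfd, C8a, C8b and C9 were not analysed here, and results of some listed genes are not reported here. Same-numbered CTR and dKO libraries deviated from their group means with correlations between -0.108 and 0.565, so the numbers were not taken to pair libraries. The same-numbered dKO library was the closest only for CTR replicates 1 (0.436) and 4 (0.565). Whether libraries of some numbers were handled together was not tested.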

Additional observations from a re-analysis of the deposited data

Results flagged for a closer look

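Within groups of 6 libraries, a library was singled out where its gap to the nearest other library was a large part of the whole range by Dixon's test. This was so in 9 of 62 groups, where the test's nominal rate is about 1 in 20 groups, or 3.1 of 62. That rate assumes independent groups and normally distributed values. The values here are FPKM without logarithm, of genes that partly vary together, so no excess is read from the 9. Of the 9, 4 were dKO replicate 3: C3ar1 at 27.9 FPKM (others 8.64 to 15.9), C5ar1 at 22.8 FPKM (others 10.02 to 12.5), Itgb2 at 110 FPKM (others 65.5 to 78.4) and Lair1 at 4.55 FPKM (others 1.72 to 2.05). CTR replicate 5 was singled out for C1qa at 49.3 FPKM (others 19.9 to 30.7) and C3ar1 at 2.85 FPKM (others 0.641 to 1.17). CTR replicate 4 was singled out for C7 at 9.26 FPKM (others 0.643 to 3.10) and C8g at 2.22 FPKM (others 1.34 to 1.57), and dKO replicate 5 for C3 at 84.3 FPKM (others 5.65 to 24.0). The summed macrophage list was highest of its group in dKO replicate 3, at 5425 FPKM, and second highest in CTR replicate 5, at 1342 FPKM.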

How the results depend on the processing

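The number of the 9 genes with separate groups was 4 under both other scalings. It was also 4 on leaving out each library in turn (4 to 4), but leaving out a library cannot make separate groups overlap, so nothing is read from this. Called complement genes outside the 9 numbered 17, and 16 to 18 with 1 library left out. Without a filter 22 of 48 were called, and with at least 5 FPKM 12 of 17. Over all genes 6614 were called, between 5858 and 6841 with 1 library left out, and 4222 of 7891 tested with at least 5 FPKM, where fewer genes were tested. Median-of-ratios scaling raised the share of higher calls over all genes from 38.5% to 51.6% and moved the median log2 fold change from -0.10 to -0.02. Within-group relations passed in 7 to 8 of 8 with 1 library left out. With the replicate number as a block, 6955 genes and 18 complement genes outside the 9 were called, and since the numbers were not taken to pair the libraries nothing is read from this. The log2 fold changes of the 8 genes that passed the filter moved by less than the spread between libraries, except C3ar1 (3.69 with a pseudocount of 0.1, 3.81 with 0.01 and 3.41 rescaled to TPM). Scarf1 also lost its call without a filter (adjusted p = 0.0572), and Clu gained it with the block (0.0464). limma-voom on recovered fragments called 6609 genes and 17 complement genes. No protein was measured in these libraries.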
